A study of Mus musculus with 8 samples.

Results

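The glycolysis and pyruvate metabolism genes are 33 named genes for glucose and lactate transport, the enzymes of glycolysis with their isoenzymes, lactate dehydrogenase, and the pyruvate dehydrogenase complex with its kinases. They were chosen by symbol and matched to Ensembl identifiers, and all 33 were found among the 41214 genes of the count tables. Glycolysis splits glucose into pyruvate in the cytosol. The pyruvate is then either reduced to lactate, which leaves the cell through monocarboxylate transporters, or oxidised in mitochondria by pyruvate dehydrogenase. Several steps are served by isoenzymes from separate genes, and in bone marrow (BM) the isoenzyme in use differs between the myeloid, lymphoid and red cell lineages.

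RNA-seq was performed on total BM of 8 C57Bl6 mice, with 1 library per mouse and 2 mice per group. Gfi1KD (KD) mice carry a human GFI1 cDNA in the Gfi1 locus, and a floxed neo cassette in antisense keeps its expression low. Gfi1KO (KO) mice are labelled as lacking Gfi1, a transcriptional repressor that myeloid differentiation needs. Ages at sampling were 39 and 42 days (young KD), 48 and 44 days (young KO), 158 and 101 days (old KO) and 187 and 78 days (sick KD). The 2 sick KD libraries are labelled AML and the other 6 no AML, although the study describes the fatal disease of KD mice mainly as myeloproliferative, so AML is used below only as the name of the label. Every mouse had an altered Gfi1 locus, and no wild-type library was analysed here. The sick KD and old KO groups therefore differ in genotype and in disease label at once, and the sick KD and young KD groups in age and in disease label, so that within each of these comparisons the effects cannot be told apart.

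The libraries held 26642067 to 42679114 counts in genes, and replicates differed by more than sampling noise (chi-square per degree of freedom 21.8 to 35.9). Levels are given as CPM, a gene's counts relative to the total of its library, with library totals scaled by the trimmed mean of M-values (TMM). Gfi1 was at 6.17 and 7.03 CPM in young KD, 5.49 and 7.15 CPM in sick KD, 13.99 and 14.4 CPM in young KO, and 13.3 and 29.7 CPM in old KO. It was thus higher in the libraries labelled KO. A count over the whole gene does not show which exons remain, nor does it measure the human cDNA, so the genotypes below are those of the labels. In the 2 sick KD libraries 42.0% and 38.8% of uniquely aligned reads were assigned to no gene feature by HTSeq, against 26.9% to 33.8% in the other 6. The tally does not show whether such reads lay between genes or within introns. The part of this in any result below was not tested. Markers of myeloid, B and red cells were detected in every library, with no marker at 0 in all 8, and skeletal muscle markers summed to only 6.56 to 9.37 CPM.

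The 31 members with enough counts to be tested spanned a wide range of levels. On the scale of CPM per kb of the principal transcript, as the mean of all 8 libraries, Pkm (pyruvate kinase, the last step to pyruvate) was highest at 547 CPM per kb. It was followed by Aldoa (aldolase) at 444, Gapdh (glyceraldehyde phosphate dehydrogenase) at 245, Ldha (lactate dehydrogenase A) at 232, Gpi1 (phosphoglucose isomerase) at 224 and Eno1 (enolase) at 190 CPM per kb. The members of low level were Pfkfb2 at 2.42, Pdk2 at 1.88 and Aldoc at 1.31 CPM per kb. Eno2, the neuronal enolase, had 0 to 12 counts per library and Pdk4, a pyruvate dehydrogenase kinase induced by fasting, 2 to 8 counts, and both were too low to be tested. The members took 0.560% to 0.603% of all gene counts in the 6 libraries labelled no AML, 0.607% in sick KD 1 and 0.694% in sick KD 2.

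Of the 31 members, 10 were higher in both sick KD libraries than in any of the other 6, where 24.6% of all 15102 genes tested did the same. A further 8 were lower in both sick KD libraries than in the other 6, where the share of all genes was 23.7%. The members that stood above were Slc2a1, Gpi1, Pfkfb4, Aldoa, Gapdh, Pgam1, Eno1, Pkm, Ldha and Ldhb. Those that stood below were Hk1, Hk2, Pfkp, Pfkm, Pfkfb2, Pfkfb3, Slc16a1 and Pdk2. The other 13 members tested overlapped, among them Hk3, Pfkl, Adpgk, Tpi1, Pgk1, Eno3 and Aldoc, so that members of the same step stood on different sides or overlapped.

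**Figure D1:**
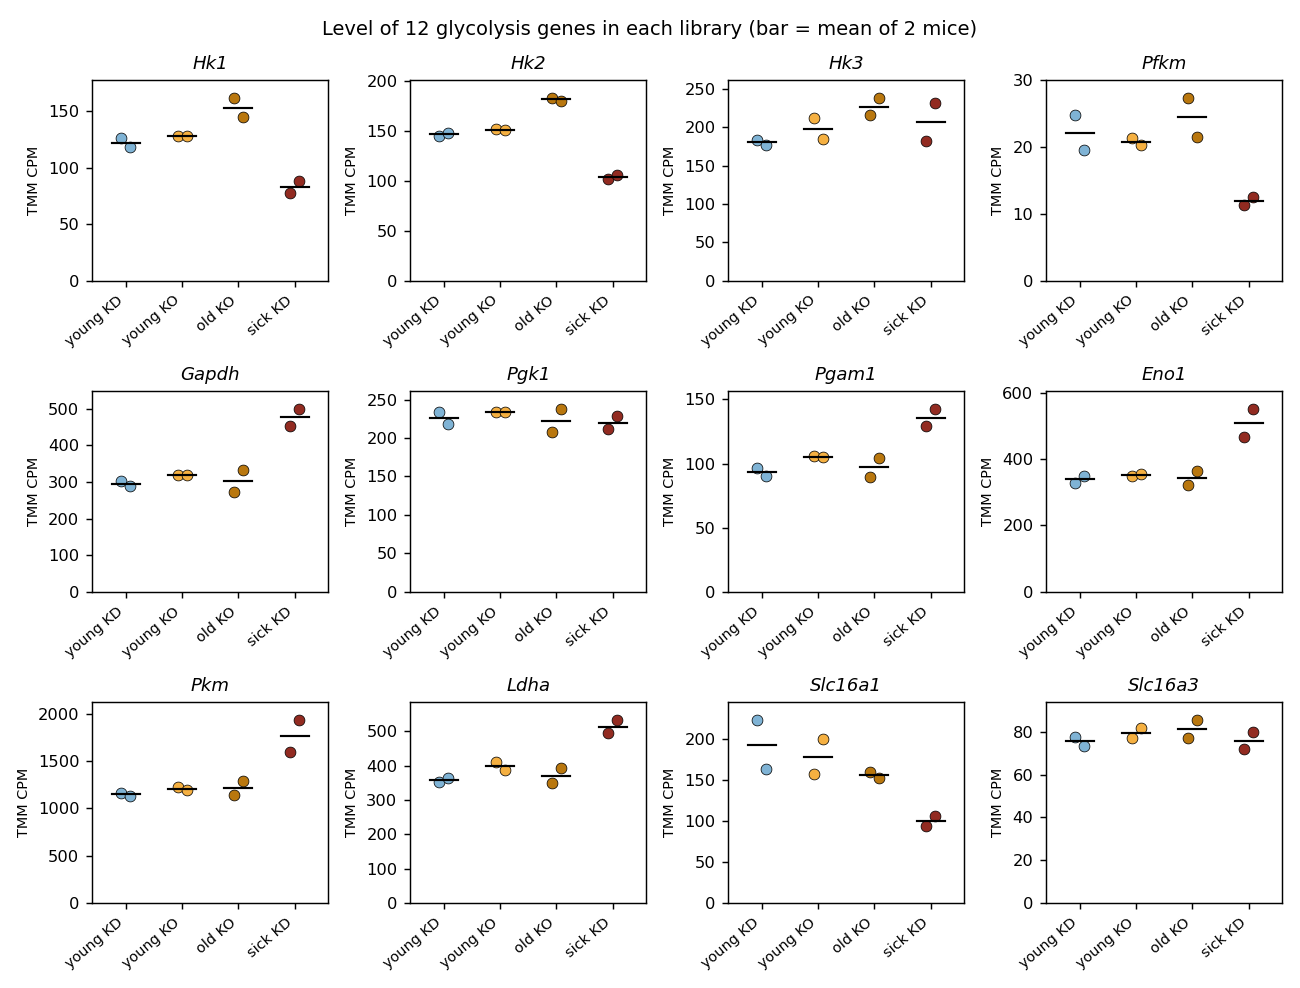
TMM CPM of 12 members (y axes, from 0) in the 8 BM libraries by group (x axes), where each point is 1 mouse and the bar the mean of 2. The sick KD points lie above the other 6 for Gapdh (453 and 499 CPM), Pgam1, Eno1, Pkm and Ldha, below them for Hk1, Hk2, Pfkm and Slc16a1 (93.6 and 106 CPM), and among them for Hk3, Pgk1 and Slc16a3.

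To place the members in their regulatory context, the 250 bases upstream of RefSeq transcription starts (build GRCm38.p6) were read for 32 of the 33 genes, which have 48 promoters. The letters ACGTG, a form of the core of the sites that HIF-1 binds, were searched on both strands. The other form of that core, GCGTG, was not searched, so the counts below do not cover all HIF-1 cores. The letters CACGTG, the E-box that MYC and other basic helix-loop-helix factors bind, read the same on both strands and hold ACGTG on each, so that 1 CACGTG counts as 2 matches of ACGTG. The shorter motif was present in 21 member promoters (43.8%), 16.6% of all 32851 mouse promoters and 17.8% of 21262 promoters of protein-coding genes. CACGTG was present in 12.5% of member promoters, 6.02% of all promoters and 6.63% of those of protein-coding genes. Sequences are shown here, each on its gene's strand. Ldha (chr7:46845554-46845803, plus strand) was higher in sick KD and has the most matches. Hk2 (chr6:82774455-82774704, minus strand) and Slc16a1 (chr3:104638414-104638663, plus strand) were lower and have matches. Gapdh (chr6:125165774-125166023, minus strand) was higher and has no ACGTG on either strand, though its stretch does hold the unsearched GCGTG. Capitals mark the searched letters on either strand. The minus-strand form of ACGTG reads CACGT. The sequences run from the farthest base to the base before the start.
Ldha: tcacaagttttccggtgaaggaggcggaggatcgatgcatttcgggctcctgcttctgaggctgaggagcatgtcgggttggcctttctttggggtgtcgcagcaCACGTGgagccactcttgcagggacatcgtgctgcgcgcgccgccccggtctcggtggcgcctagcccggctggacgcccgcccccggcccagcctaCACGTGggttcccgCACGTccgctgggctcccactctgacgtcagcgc
Hk2: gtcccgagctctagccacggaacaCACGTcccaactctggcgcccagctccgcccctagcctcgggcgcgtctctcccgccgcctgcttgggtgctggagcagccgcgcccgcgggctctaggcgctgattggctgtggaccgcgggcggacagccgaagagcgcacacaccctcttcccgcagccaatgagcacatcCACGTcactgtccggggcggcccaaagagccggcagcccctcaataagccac
Slc16a1: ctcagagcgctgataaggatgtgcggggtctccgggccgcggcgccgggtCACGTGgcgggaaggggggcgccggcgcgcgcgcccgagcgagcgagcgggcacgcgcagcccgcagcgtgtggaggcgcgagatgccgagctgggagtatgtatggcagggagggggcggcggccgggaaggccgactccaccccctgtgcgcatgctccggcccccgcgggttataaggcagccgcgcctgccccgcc
Gapdh: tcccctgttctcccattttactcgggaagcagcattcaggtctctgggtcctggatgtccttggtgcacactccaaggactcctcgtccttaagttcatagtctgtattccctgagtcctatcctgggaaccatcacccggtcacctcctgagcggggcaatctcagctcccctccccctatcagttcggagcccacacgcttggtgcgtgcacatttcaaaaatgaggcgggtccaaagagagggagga
Among the 8 members that passed the test as higher in sick KD than in young KD, 4 had ACGTG in at least 1 promoter, namely Slc2a1, Pgam1, Pkm and Ldha. Among the 5 that were lower, 4 had it, namely Hk2, Pfkm, Pfkfb3 and Slc16a1. These counts are per gene over any of its promoters, whereas the shares above are per promoter. The share of all genes with a match in any promoter was not counted. The letters were thus present on both sides of the comparison, and a match describes the sequence and not a bound site.

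The first comparison asked how the members differed between the KD and KO genotypes before disease. With edgeR's quasi-likelihood test, adjusted by Benjamini-Hochberg over all genes, 0 of 31 members passed an adjusted p of 0.05, and 0.0404% of all genes did (0.0202% higher and 0.0202% lower). DESeq2 called 0 members, and 1 member, Eno3 (muscle enolase), had an unadjusted p under 0.05. Eno3 was at 11.3 and 15.2 CPM in the young KD and at 8.40 and 7.03 CPM in the young KO libraries (log2 fold change -0.78, SE 0.19, adjusted p = 0.99999). The log2 fold changes of the members ran from -0.78 to 0.21, with a median of 0.05, against -0.01 over all genes. For Hk2 the 95% interval of the log2 difference between the young groups was -0.13 to 0.21, and for Gapdh -0.08 to 0.28.

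The next comparison asked how BM of sick KD mice differed from that of young KD mice. Of 31 members, 8 rose and 5 fell in sick KD, which is 13 members where 20.9% of all genes passed (9.45% higher, 11.4% lower). DESeq2 called 14 members and 23.2% of all genes. The median log2 fold change of the members was 0.07 and that of all genes 0.01. All 8 that rose were among the 10 that stood above the other 6 libraries, and all 5 that fell among the 8 that stood below. The same young KD and sick KD libraries enter these counts.

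Glucose enters the cell through facilitative transporters and is trapped by hexokinase. Slc2a1 (the widely expressed transporter GLUT1) was at 28.03 and 25.3 CPM in young KD and rose to 35.4 and 39.0 CPM in sick KD (log2 fold change 0.47). Slc2a3 (GLUT3) was at 32.8 and 48.0 CPM in young KD and 34.3 and 24.4 CPM in sick KD, and its groups overlapped. The young KO libraries of Slc2a3 were farther apart, at 55.0 and 24.996 CPM.

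Hk1 was at 127 and 118 CPM in young KD and 78.1 and 88.5 CPM in sick KD (log2 fold change -0.56, SE 0.11, edgeR adjusted p = 0.0216). Hk2, the inducible hexokinase, was at 145 and 148 CPM in young KD and 102 and 106 CPM in sick KD (log2 fold change -0.50, SE 0.10, adjusted p = 0.0205). Both fell to levels below those of every other library. Hk3, the hexokinase of myeloid cells, was at 184 and 178 CPM in young KD and 183 and 232 CPM in sick KD, and this difference did not pass the test (log2 fold change 0.19, 95% interval -0.15 to 0.53). With the trends in transcript length and GC content removed, Hk3 was called higher in sick KD (log2 fold change 0.35, adjusted p = 0.0177). Adpgk, a glucokinase that uses ADP, ran from 54.7 to 66.8 CPM over the 8 libraries with overlap of all groups.

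At the next steps Gpi1, which converts glucose 6-phosphate to fructose 6-phosphate, was at 572 and 584 CPM in young KD and rose to 763 and 819 CPM in sick KD (log2 fold change 0.45). Among the phosphofructokinases, which commit the sugar to glycolysis, Pfkm (muscle type) was at 24.7 and 19.5 CPM in young KD and 11.3 and 12.5 CPM in sick KD. It fell by 0.90 on the log2 scale (SE 0.17, adjusted p = 0.0171). Pfkl (liver type) was at 94.8 and 83.2 CPM in young KD and 82.4 and 95.3 CPM in sick KD, and Pfkp (platelet type) at 161 and 154 CPM and 132 and 144 CPM. Neither of these 2 passed the test. Of the bifunctional enzymes that set the level of the activator fructose 2,6-bisphosphate, Pfkfb3 fell from 48.9 and 47.2 CPM in young KD to 33.7 and 36.7 CPM in sick KD (log2 fold change -0.46). Pfkfb4 was at 73.9 and 87.0 CPM in young KD and 103 and 99.7 CPM in sick KD and did not pass (95% interval 0.04 to 0.61 without adjustment), nor did Pfkfb2.

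In the lower part of the pathway the members that changed all rose. Gapdh was at 303 and 288 CPM in young KD and 453 and 499 CPM in sick KD, a 1.60-fold rise (log2 fold change 0.68, SE 0.11, adjusted p = 0.0136). Gapdh was also the reference gene of the study's RT-PCR. Actb, another widely used reference, ran from 9339 to 10887 CPM over all 8 libraries, with the sick KD libraries at 10022 and 10681 CPM inside that range. Pgk1 (phosphoglycerate kinase), which acts directly after Gapdh, was at 234 and 218 CPM in young KD and 211 and 229 CPM in sick KD, with a 95% interval of the log2 difference from -0.31 to 0.22. Per library, Gapdh CPM exceeded Pgk1 CPM 2.15 and 2.18 times in sick KD, compared with 1.30 to 1.40 times in the other 6.

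Pgam1 (phosphoglycerate mutase) was at 96.5 and 90.3 CPM in young KD and 129 and 142 CPM in sick KD (log2 fold change 0.53, SE 0.11, adjusted p = 0.0226). Eno1 rose from 328 and 350 CPM to 465 and 551 CPM (log2 fold change 0.58, SE 0.13, adjusted p = 0.0271). Pkm rose from 1161 and 1130 CPM to 1593 and 1929 CPM (log2 fold change 0.61, SE 0.13, adjusted p = 0.0265). These 3 enzymes act one after the other at the end of glycolysis, and in each the sick KD libraries lay above all other libraries. Aldoa was at 638 and 567 CPM in young KD and 762 and 952 CPM in sick KD (log2 fold change 0.50) and did not pass the test in edgeR. It passed in 4 of the 7 alternatives that kept all libraries, among them DESeq2 (adjusted p = 0.00757). Tpi1 (triose phosphate isomerase) was at 216 and 217 CPM and 231 and 277 CPM. Eno3 and Aldoc were low and variable.

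Both lactate dehydrogenase genes rose. Ldha, whose subunit favours the reduction of pyruvate to lactate, was at 351 and 365 CPM in young KD and 496 and 532 CPM in sick KD (log2 fold change 0.52, SE 0.11, adjusted p = 0.0248). Ldhb was at 19.7 and 21.7 CPM and 30.5 and 31.5 CPM (log2 fold change 0.58, SE 0.12, adjusted p = 0.0232). The lactate transporters parted. Slc16a1 (MCT1) was at 222 and 163 CPM in young KD and 93.6 and 106 CPM in sick KD, and it fell by 0.96 on the log2 scale (SE 0.17, adjusted p = 0.0155). Slc16a3 (MCT4), which exports lactate from highly glycolytic cells, was at 77.7 and 73.4 CPM and 71.7 and 79.8 CPM (95% interval -0.27 to 0.26).

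No member that leads pyruvate into mitochondrial oxidation passed the test. Pdha1 and Pdhb, the subunits of pyruvate dehydrogenase, were at 173 and 169 CPM and at 72.1 and 69.7 CPM in young KD. In sick KD they were at 159 and 141 CPM and at 72.7 and 65.0 CPM. Pdk1 and Pdk3, kinases that switch the complex off, had log2 fold changes of 0.07 and 0.17, and Pdk2 of -0.31 with a 95% interval from -0.84 to 0.21. The pyruvate dehydrogenase genes thus moved less than the lactate dehydrogenase genes on the log2 scale, a difference that was not tested.

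The number of calls depended on the libraries. Without young KD 1 the members called were 0 higher and 1 lower (Slc16a1), and 8.73% of all genes passed. Without young KD 2 they were 0 higher and 3 lower (Hk1, Pfkm and Slc16a1), and 15.4% of all genes passed. Leaving out sick KD 1 gave 9 higher and 4 lower (15.5% of all genes) and leaving out sick KD 2 gave 7 higher and 6 lower (22.4%). For Gapdh the log2 fold change was 0.71 without young KD 1 (adjusted p = 0.0931) and 0.62 without young KD 2 (adjusted p = 0.102). A fit without 1 library takes the spread of the lone sample from the other group.

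**Figure D2:**
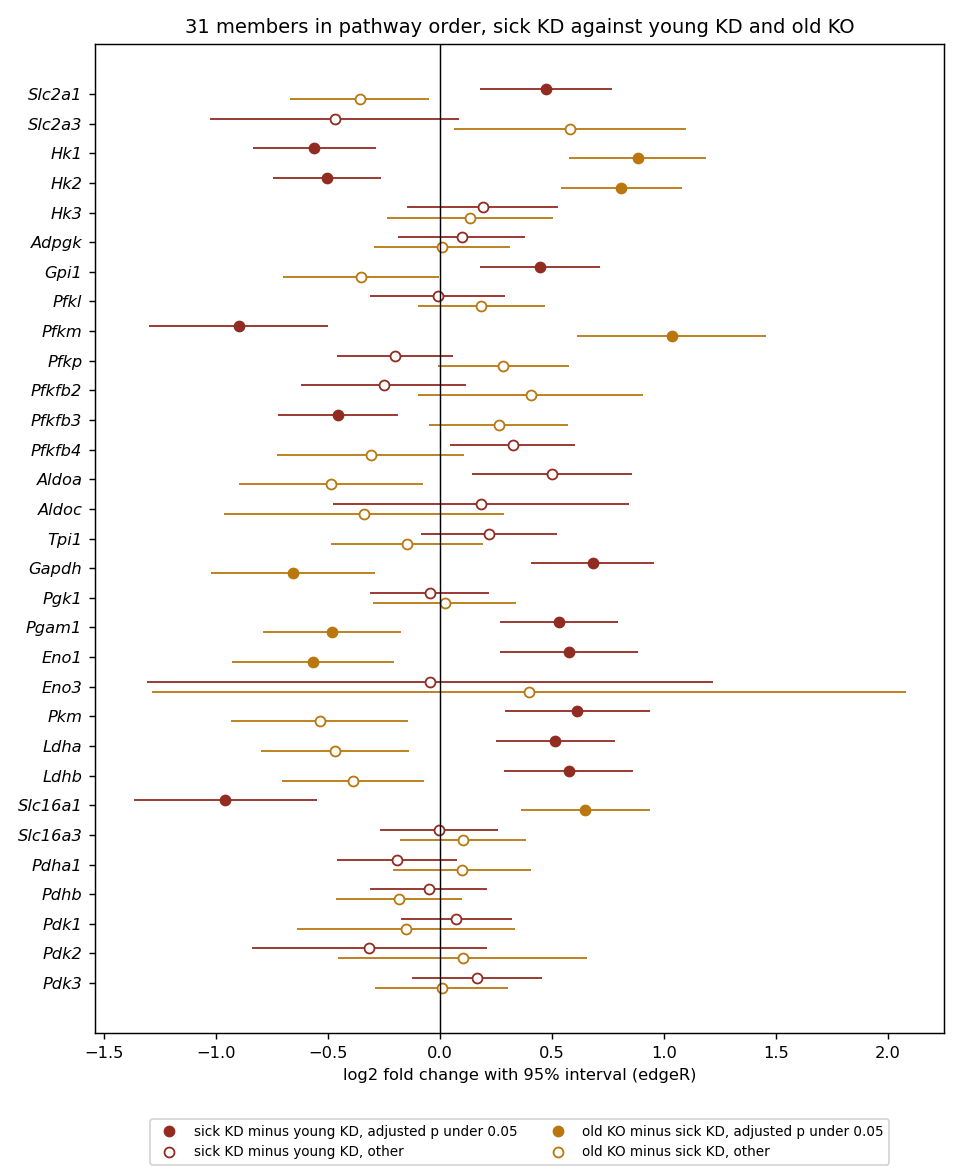
Log2 fold change (x axis) of the 31 members tested, in pathway order from glucose uptake to pyruvate dehydrogenase kinases (y axis), for sick KD minus young KD and old KO minus sick KD, with 95% intervals from edgeR. Filled points have an adjusted p under 0.05: in sick KD against young KD Gapdh is at 0.68 and Slc16a1 at -0.96, and in old KO against sick KD Pfkm is at 1.04 and Gapdh at -0.65. Both comparisons use the same sick KD libraries.

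Old KO mice were then compared with sick KD mice, the comparison in which the genotype and the disease label differ and the ages overlap. Of 31 members 4 were higher and 3 lower in old KO, 7 in all, where 18.1% of all genes passed (9.93% higher, 8.22% lower). DESeq2 called 11 members and 21.1% of all genes. With the trends in transcript length and GC content removed, 4 members were higher and 9 lower, and 25.4% of all genes passed. The median log2 fold change was 0.01 in the members and -0.005 in all genes. The sick KD libraries are the same as in the comparison above, so values for the old KO mice are what is added here.

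Hk1 was at 162 and 145 CPM in old KO, above all other libraries (log2 fold change against sick KD 0.88, SE 0.13, adjusted p = 0.00824). Hk2 was at 183 and 181 CPM in old KO (log2 fold change 0.81, SE 0.11, adjusted p = 0.00754). For both, the order of the groups was sick KD, young KD and young KO close together, then old KO. Hk3 was at 215 and 238 CPM in old KO and overlapped with sick KD. Pfkm was at 27.3 and 21.5 CPM (log2 fold change 1.04, SE 0.18, adjusted p = 0.0128) and Slc16a1 at 159 and 153 CPM (log2 fold change 0.65, SE 0.12, adjusted p = 0.0165). The old KO levels of Slc16a1 overlapped with the young KO levels of 157 and 199 CPM.

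Gapdh was at 272 and 332 CPM in old KO, lower than in sick KD (log2 fold change -0.65, SE 0.15, adjusted p = 0.0308). Pgam1 was at 89.2 and 105 CPM (log2 fold change -0.48, SE 0.13, adjusted p = 0.0460) and Eno1 at 321 and 364 CPM (log2 fold change -0.57, SE 0.15, adjusted p = 0.0455). Pkm at 1135 and 1288 CPM and Ldha at 350 and 392 CPM lay below both sick KD libraries without passing the test, with log2 fold changes of -0.54 and -0.47 and adjusted p values of 0.0663 and 0.0601. DESeq2 gave adjusted p values of 0.00300 and 0.00356 for these 2 genes.

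The hexokinase and Pfkm calls held in every fit that left out 1 library, with log2 fold changes of 0.79 to 0.97 for Hk1, 0.79 to 0.83 for Hk2 and 0.87 to 1.19 for Pfkm. Slc16a1 had an adjusted p of 0.0573 without old KO 1. The 3 members that were lower in old KO were less firm, in fits where 8.10% to 18.7% of all genes passed. Without sick KD 1 only Eno1 passed, without old KO 2 only Gapdh, and without sick KD 2 or without old KO 1 none of the members was called lower by edgeR. Without old KO 1 the adjusted p was 0.223 for Gapdh, 0.329 for Pgam1 and 0.275 for Eno1.

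The old KO mice were also compared with the young KO mice, which differ in age alone by the labels. Here 0 of 31 members passed in edgeR and 0 in DESeq2, where 0.929% of all genes passed in edgeR (0.323% higher, 0.606% lower). Hk1 and Hk2 were the 2 members with an unadjusted p under 0.05. Hk1 was at 128 and 128 CPM in young KO (log2 fold change of old against young 0.25, adjusted p = 0.459) and Hk2 at 152 and 151 CPM (log2 fold change 0.26, adjusted p = 0.317). Their old KO levels stood above the young KO levels without overlap, but the differences did not pass the test. Without old KO 2, 1 member was called higher in old KO, namely Eno3 (log2 fold change 1.80, adjusted p = 0.0115), which was at 26.9 CPM in old KO 1 and 7.07 CPM in old KO 2.

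Whether the difference between KO and KD was the same in young mice as in old KO and sick KD mice was tested as an interaction over all 8 libraries. It passed for 6 of 31 members, 3 in each direction, where 7.43% of all genes passed (4.32% higher, 3.11% lower). The members were Hk1, Hk2 and Pfkm, with a more positive KO minus KD difference in the old and sick mice, and Gapdh, Pgam1 and Ldha, with a more negative one. For Hk2 the difference was 0.04 in the young mice and 0.81 in the old and sick mice on the log2 scale. For Gapdh it was 0.10 and -0.65. None of the 6 passed the test between the young groups. Without young KO 1, young KO 2 or young KD 1 the interaction passed for 0 members and 0.680% to 0.877% of all genes in edgeR, and without sick KD 1 or old KO 1 for 1 higher and 0 lower. It passed for 3 higher and 2 lower without sick KD 2, 3 and 3 without old KO 2, and 3 and 0 without young KD 2. DESeq2 called 9 members with all libraries, and 13 had an unadjusted p under 0.05 in edgeR.

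For steps with several isoenzymes the make-up of the step was compared between the 2 sick KD libraries and the 6 labelled no AML, as the share of each isoenzyme in its family's counts per kb of exon. The summed absolute difference of the mean shares was tested by an exact two-sided permutation test over the 28 ways to choose 2 of 8 libraries, whose smallest p is 0.0357, in 9 families. Hexokinase shares differed by 22.0 percentage points, phosphofructokinase by 13.8, the Pfkfb enzymes by 17.2 and the monocarboxylate transporters by 22.6, each with the smallest p of 0.0357 (exact permutation test) and 0.0804 after adjustment over the 9 families. No family therefore passed 0.05 after adjustment.

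Hk3 made up 65.3% and 69.1% of hexokinase in the sick KD libraries and 54.1% to 58.8% in the other 6. Hk2 made up 22.6% and 19.4%, against 25.9% to 28.6%, and Hk1 12.1% and 11.4%, against 15.2% to 17.5%. Hk3 thus led in every library, and its share was larger in both sick KD libraries than in the other 6. In the phosphofructokinases Pfkm made up 13.2% and 13.1% in sick KD and 17.4% to 23.4% in the others, and the Pfkl share was larger at 48.3% and 49.6% against 41.8% to 44.7%. Pfkfb4 made up 78.6% and 76.9% of its family against 65.5% to 72.6%. Slc16a1 made up 61.1% and 61.4% of the transporter pair against 68.2% to 77.5%.

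In the other families the shares of sick KD overlapped with the rest. Ldha made up 88.5% and 88.9% of lactate dehydrogenase in sick KD and 88.0% to 91.7% in the others, since Ldha and Ldhb rose side by side (exact permutation p = 0.571). Aldoa took 99.4% to 99.6% of aldolase over the 8 libraries (p = 0.500, exact permutation test). Eno1 made up 96.5% and 89.8% of the tested enolases in sick KD and 79.4% to 94.3% in the others (exact permutation p = 0.536). Pdk3 led the pyruvate dehydrogenase kinases with 62.8% to 72.1% over the 8 libraries (exact permutation p = 0.821), and Slc2a1 made up 68.1% and 76.8% of the pair of glucose transporters against 51.8% to 73.3% (exact permutation p = 0.179). With the length of the principal transcript in place of all exons, Pfkp and not Pfkl led the phosphofructokinases (mean share 54.3% in both sets of libraries). By the same length Slc2a3 exceeded Slc2a1 in the mean share of the 6 libraries labelled no AML (53.3% of the pair), but not in every one of them.

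**Figure D3:**
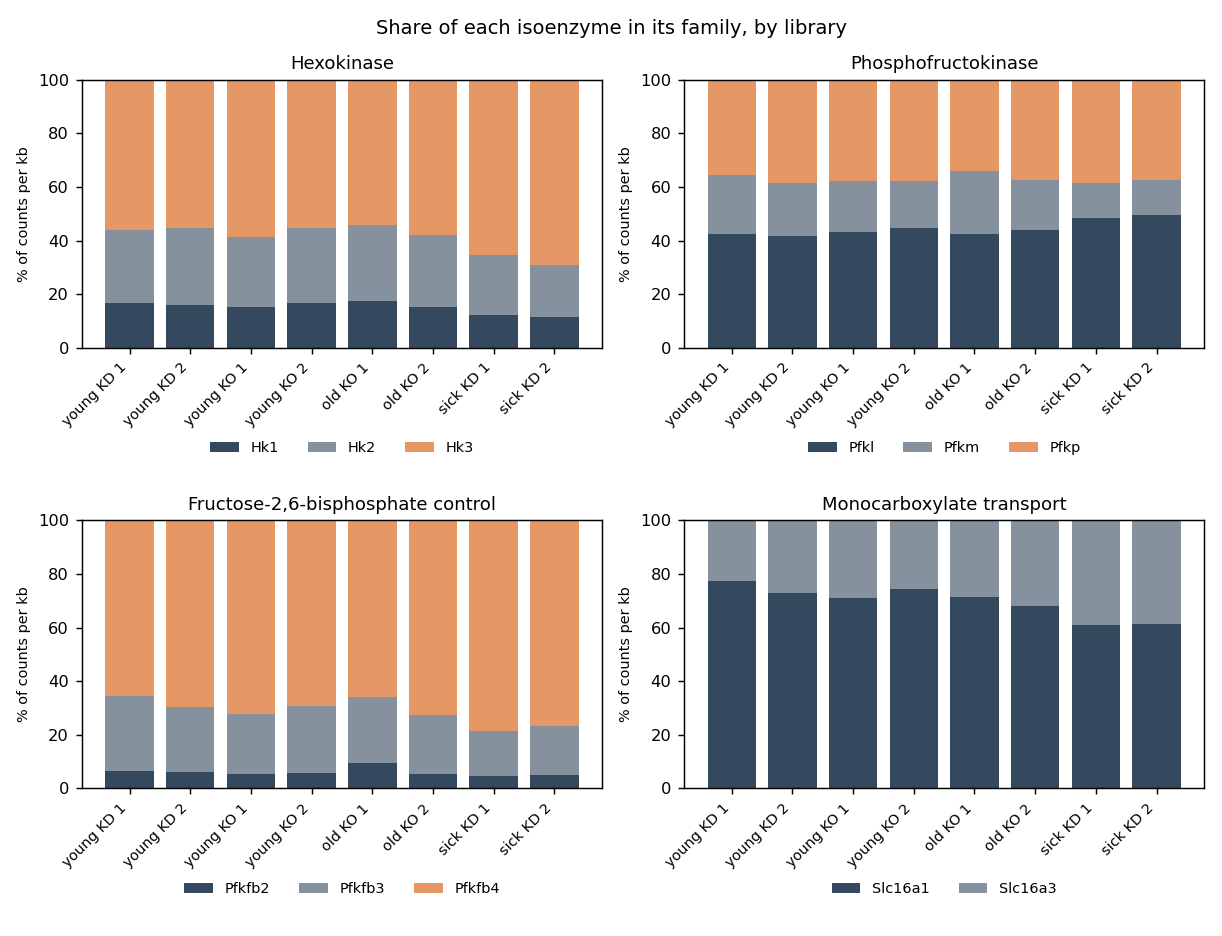
Share of each isoenzyme in its family, in % of counts per kb of exon (y axis), for 8 BM libraries (x axis) and 4 families, where each bar is 1 library. The 2 sick KD bars show the largest Hk3 share (65.3% and 69.1%), the smallest Pfkm share (13.2% and 13.1%), the largest Pfkfb4 share and the smallest Slc16a1 share (61.1% and 61.4%).

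Markers of several cell types also moved with the groups. In total BM, fewer cells of a type and less RNA per cell cannot be told apart. The 8 erythroid markers summed to 662 and 1008 CPM in the sick KD libraries and 1490 to 4814 CPM in the other 6, and all 8 were lower than in young KD and all 8 lower than in old KO by edgeR. The 7 B cell markers summed to 35.3 and 79.9 CPM in sick KD, 108 and 156 CPM in old KO and 462 to 648 CPM in the young mice. The 4 early granulocyte markers summed to 5925 and 6713 CPM in sick KD and 4081 to 5301 CPM in the others, and 3 of the 4 rose against young KD. The 6 monocyte markers summed to 9747 and 9099 CPM in sick KD and 6065 to 8306 CPM in the others. Against young KD 2 of them rose and 1, Cx3cr1, fell. The 6 macrophage markers summed to 230 and 198 CPM in sick KD and 212 to 384 CPM in the others. Most of that sum is Adgre1 (185 and 161 CPM in sick KD), which did not fall. Of the 6, 4 were lower in sick KD than in young KD, where 20.9% of all genes passed. In old KO 4 were higher than in sick KD, where 18.1% of all genes passed. The 10 neutrophil markers summed to 4226 CPM in sick KD 1 and 580 to 1561 CPM in the other 7 libraries, sick KD 2 included. The T cell sum was 9.0 and 5.72 CPM in sick KD and 6.33 to 20.6 CPM in the others. The megakaryocyte and platelet sum was 136 and 72.3 CPM in sick KD and 54.3 to 251 CPM in the others, and that of dividing cells 5110 and 4066 CPM against 3859 to 4576 CPM. The part of these cell types in the changes of the members was not tested.

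The young mice varied in red cell markers among themselves. The erythroid sum was 4122 and 1602 CPM in young KD and 1490 and 3555 CPM in young KO. Slc16a1 was higher in the young library of each pair with the higher erythroid sum, at 222 against 163 CPM in young KD and 199 against 157 CPM in young KO. Hk1 was at 127 and 118 CPM and at 128 and 128 CPM in the same libraries, and Hk2 at 145 and 148 CPM and at 152 and 151 CPM. In the old KO libraries, with erythroid sums of 4814 and 2986 CPM, Slc16a1 was at 159 and 153 CPM, near the 157 CPM of young KO 1. In sick KD, with erythroid sums of 662 and 1008 CPM, Slc16a1 was at 93.6 and 106 CPM. The order of Slc16a1 thus followed that of the erythroid sum within the pair of every group, but not across all 8 libraries. The same held for Hk1, at 78.1 and 88.5 CPM in sick KD and 162 and 145 CPM in old KO. Its young KO libraries were nearly equal, at 128.23 and 128.36 CPM. The part of red cells in this was not tested. For Pfkm the 4 young libraries had 24.7 and 19.5 CPM and 21.3 and 20.3 CPM.

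**Figure D4:**
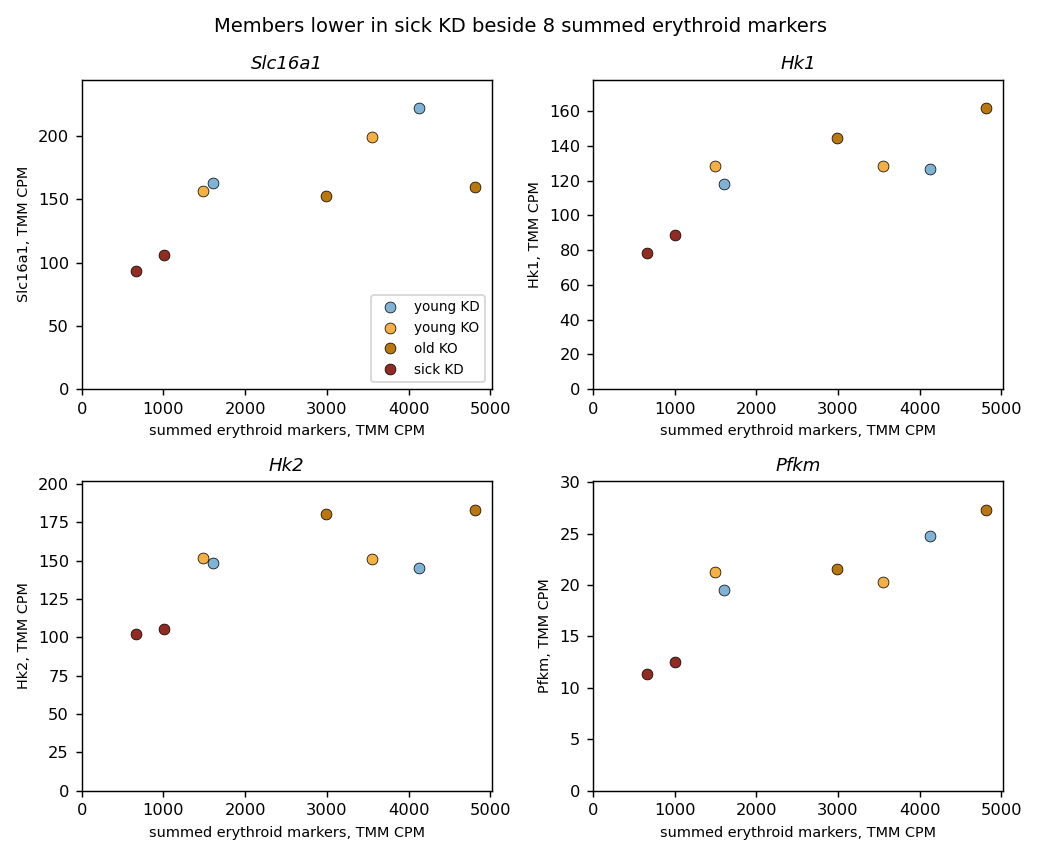
TMM CPM of Slc16a1, Hk1, Hk2 and Pfkm (y axes, from 0) against the summed TMM CPM of 8 erythroid markers (x axes), where each point is 1 BM library. The 2 sick KD points are lowest on both axes in all 4 panels (erythroid sum 662 and 1008 CPM), and among the 4 young libraries Hk1 and Hk2 span 118 to 128 and 145 to 152 CPM.

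Transcript length moved with the direction of the change. The 9 members with principal transcripts under 2 kb had a median log2 fold change of 0.50 in sick KD against young KD, the 15 of 2 to 4 kb 0.17 and the 7 over 4 kb -0.25. Over all genes the medians were 0.08, -0.07 and -0.04. Spearman's rho of log2 fold change and length was -0.60 across the 31 members and -0.09 across 12815 genes, where the points come from the same 4 libraries. In old KO against sick KD, which shares the sick KD libraries, the medians of the members were -0.39, 0.01 and 0.28. Each library's trend in GC content and in the length of the longest transcript, not the principal one, was then removed. The 2 lengths can differ, as for Gapdh with 3289 and 1420 bases. After this removal every member call of both comparisons kept its direction and stayed past the threshold, but sizes moved. In sick KD against young KD the log2 fold change went from -0.56 to -0.36 for Hk1, from -0.50 to -0.33 for Hk2 and from -0.46 to -0.30 for Pfkfb3, while that of Gapdh went from 0.68 to 0.83. The part of transcript length in these changes was not settled by this.

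**Figure D5:**
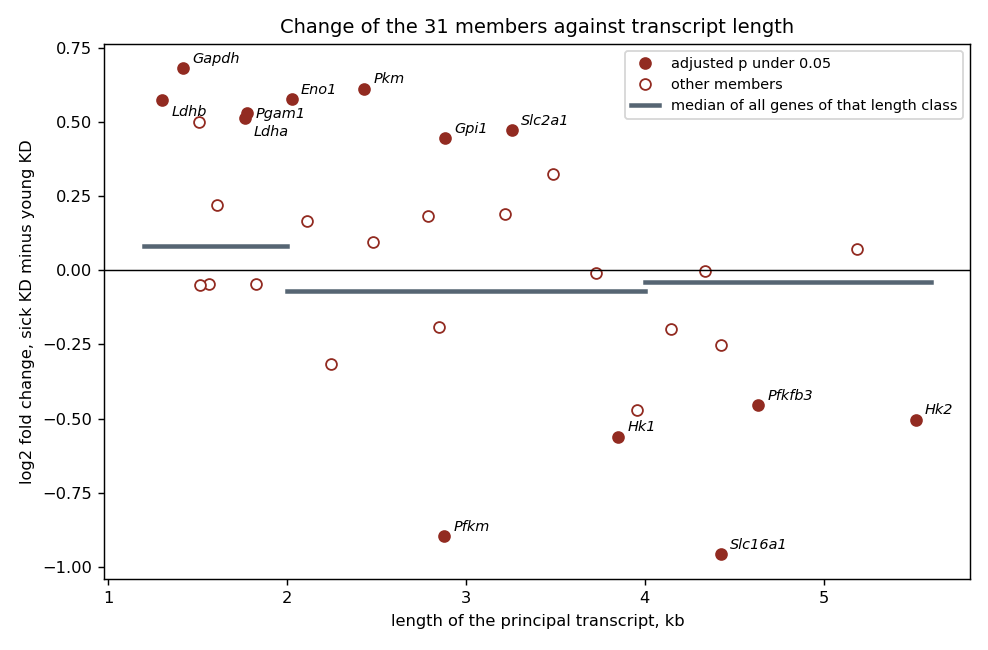
Log2 fold change of sick KD minus young KD (y axis) against the length of the principal transcript in kb (x axis) for the 31 members, with grey bars for the median of all genes in 3 length classes. The members under 2 kb have a median of 0.50 and those over 4 kb of -0.25, whereas the all-gene medians lie between -0.07 and 0.08.

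Reads that align equally well to a processed pseudogene were not counted, and several members have such copies in the mouse genome. The tally of alignments that were not unique, over all genes, was larger beside the gene counts in sick KD. It was 45056950 beside 26642067 in sick KD 1 and 56501078 beside 30139409 in sick KD 2. Old KO 1 had 29299324 beside 27515379 and young KO 1 47000865 beside 42679114. The part of this in the levels of the members was not tested. Gapdh has 87 annotated transcripts of other genes with at least 95% identity, of which 82 were in the count tables and together held 18.9 to 35.9 CPM. The copies of Gapdh were at a mean of 35.5 CPM in sick KD, 22.7 CPM in young KD and 22.4 CPM in old KO. They were thus highest in sick KD, as was Gapdh itself. Pgam1 has 1 copy of 100% identity at 8.49 to 13.4 CPM, and Pgk1 has 4 copies, Ldha 4, Eno1 3, Pkm 2 and Gpi1, Tpi1, Ldhb and Pfkfb2 1 each. The levels of these genes are therefore uncertain.

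Other genes of the pathway, from a list chosen by function, were tested in the same fits. Of 36 other glycolysis and pyruvate genes tested in sick KD against young KD, 3 rose and 7 fell, and in old KO against sick KD 8 of 35 were higher and 1 lower. Of all genes, 20.9% passed in the former comparison and 18.1% in the latter, and these shares are the background for each of the lists below. Pklr, the pyruvate kinase of red cells and liver, was at 14.7 and 9.83 CPM in young KD, 2.38 and 1.64 CPM in sick KD and 16.7 and 11.2 CPM in old KO (log2 fold change of sick KD against young KD -2.62, SE 0.30, adjusted p = 0.00570). Bpgm, which makes the red cell metabolite 2,3-bisphosphoglycerate, was at 99.95 and 48.5 CPM in young KD, 16.1 and 22.2 CPM in sick KD and 112 and 76.5 CPM in old KO (log2 fold change -1.96, SE 0.35, adjusted p = 0.0156). Both are genes of the red cell, whose 8 markers fell in the same libraries.

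Mpc1, a subunit of the carrier that brings pyruvate into mitochondria, was at 26.1 and 29.0 CPM in young KD and 49.97 and 48.8 CPM in sick KD (log2 fold change 0.83, SE 0.11, adjusted p = 0.00844). In old KO it was at 23.3 and 30.7 CPM (log2 fold change against sick KD -0.86, adjusted p = 0.0141). Slc2a4 (GLUT4) was lower in sick KD than in young KD (log2 fold change -1.36), and Fbp1, an enzyme of gluconeogenesis at 0.548 to 3.24 CPM, was higher (1.25), as was Pgm2 (0.41).

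In the pentose phosphate pathway, which branches off at glucose 6-phosphate, 2 of 11 genes rose and 2 fell in sick KD against young KD, and in old KO against sick KD 1 was higher and 1 lower. Rpia and Rpe, which act on the same substrate, went opposite ways. Rpia was at 91.3 and 86.8 CPM in young KD and 47.9 and 50.9 CPM in sick KD, and Rpe at 66.5 and 71.0 CPM and 118 and 93.8 CPM. Of 20 genes of the tricarboxylic acid cycle 2 rose and 1 fell in sick KD against young KD, and in old KO against sick KD 1 was higher and 1 lower. Here the subunits of succinate dehydrogenase parted, with Sdhb at 134 and 138 CPM in young KD and 202 and 205 CPM in sick KD, and Sdha at 247 and 240 CPM and 173 and 182 CPM.

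Of 19 regulators from the HIF-1 and MYC pathways 4 rose and 4 fell in sick KD against young KD. Of 18 tested in old KO against sick KD 2 were higher (Mxd1 and Esrra) and 2 lower (Mlxip and Arnt). Neither Myc nor Mycn was called in that comparison. Myc was at 21.1 and 25.2 CPM in young KD and 31.8 and 44.3 CPM in sick KD (log2 fold change 0.71, SE 0.19, adjusted p = 0.0413). Mxd1, which competes with MYC for its partner MAX, was at 52.9 and 39.5 CPM and 27.9 and 26.7 CPM (log2 fold change -0.77, SE 0.16, adjusted p = 0.0243). Mycn, a close relative of Myc, fell from 1.19 and 1.51 CPM to 0.605 and 0.569 CPM (log2 fold change -1.20, SE 0.32, adjusted p = 0.0455). Ppargc1a, a coactivator of mitochondrial genes, fell from 1.12 and 0.784 CPM to 0.242 and 0.249 CPM (log2 fold change -1.95, SE 0.41, adjusted p = 0.0235). Both were at low levels. Arnt, the partner of HIF-1 alpha, was at 36.9 and 43.1 CPM and 73.5 and 63.9 CPM (log2 fold change 0.77, SE 0.13, adjusted p = 0.0141). Egln3, an oxygen sensor that is itself a HIF-1 target, had a log2 fold change of 1.02. Of 18 other HIF-1 targets outside glycolysis 2 rose (Ndrg1 and Mif) and 1 fell (Adm) in sick KD against young KD, and of 17 in old KO against sick KD 2 were higher and 2 lower. Adm was near the floor, at 0.372 and 0.392 CPM in young KD and 0 and 0.0711 CPM in sick KD.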

How the data were processed

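RNA was extracted from total BM and stranded mRNA libraries were sequenced. Per the labels and submitters' notes, the authors aligned reads with TopHat2 (version 2.0.10) to mm10/GRCm38 and counted them per gene with HTSeq. The deposited values are raw counts of uniquely aligned reads per Ensembl gene, 1 table per mouse, and the HTSeq strand setting and annotation release are not given in the sources used here. The 5 HTSeq tallies that name no gene were left out. Symbols came from GENCODE M21 for 40340 of 41214 identifiers.

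The 4 libraries of each comparison were fitted with edgeR 4.0.16 (R 4.3.3, TMM, filterByExpr by group, quasi-likelihood test), and the interaction was fitted on all 8. P-values were adjusted by Benjamini-Hochberg over all genes tested, with a threshold of 0.05. SE is the log2 fold change over the root of F. Alternatives were DESeq2 1.42.0, RLE scaling, other filters, the 50 most abundant genes left out, length and GC trends removed, all libraries fitted together and each library left out. On simulated counts with 200 genes changed 4-fold, 196 to 200 were recovered. The simulation used a fixed spread and changed only genes that were not low. Smaller changes like those of the members were not simulated, so it cannot show how well these are recovered. Isoenzyme shares used families with 2 or more genes of at least 10 counts in every library, divided by exon length in kb. Copies are transcripts of other genes with at least 95% identity over 200 bases.

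Members, other gene lists and markers were chosen with earlier results of these data known. All members may be named. Full statistics are given for members past the threshold, at most 10 per comparison by size, and for each other list up to 3 genes per direction by size of change. Hk3, Pgk1 and other members that did not pass are given beside them as isoenzymes or neighbours in the pathway. The p-values of edgeR rest on the spread between 2 mice per group, moderated for each gene by the spread of the other genes. An exact test of 2 against 2 libraries cannot go below 0.333. Precision depends on depth, with 26642067 to 42679114 counts per library.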

Additional observations from a re-analysis of the deposited data

Results flagged for a closer look

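For 6 members the difference between KO and KD in old and sick mice was not the same as in young mice, by the interaction test of edgeR adjusted over all genes, which 7.43% of all genes passed. Each value is the log2 KO minus KD difference in old KO and sick KD mice less that in young mice. It was 0.81 for Hk1 (SE 0.14, adjusted p = 0.0218), 0.76 for Hk2 (SE 0.11, adjusted p = 0.0144) and 1.12 for Pfkm (SE 0.23, adjusted p = 0.0310). It was -0.76 for Gapdh (SE 0.16, adjusted p = 0.0348), -0.66 for Pgam1 (SE 0.15, adjusted p = 0.0384) and -0.63 for Ldha (SE 0.14, adjusted p = 0.0382). Without young KO 1, young KO 2 or young KD 1, edgeR called 0 members and 0.813%, 0.877% and 0.680% of all genes. The old and sick mice also differ in disease label, so that genotype and disease cannot be told apart. Groups of 2 mice were too small to be checked for single libraries far from the rest.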

How the results depend on the processing

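No paired analysis was possible because the mice carry individual numbers that no groups share. No member call changed direction under any alternative run. Which isoenzyme led by mean share did change with the length used, as given above for Pfkp and Pfkl and for Slc2a3 and Slc2a1. Apart from fits that left out a library, all 175 alternative values of the 26 member calls stayed past the threshold in the same direction, and 40 values of 12 members not called in that comparison passed, most often Aldoa and Pkm.

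Counts of members that moved by more than 1.5 times were as follows. In old KO against sick KD the 3 members called lower became 7 with DESeq2, 5 with no filter, 9 with length and GC trends removed and 7 with all 8 libraries fitted together, where the share of all genes called rose from 18.1% to 21.1%, 19.9%, 25.4% and 27.8%. With no filter 1 member, Eno3, was called lower in young KO than in young KD (log2 fold change -0.78) and higher in old KO than in young KO (1.12). In the interaction the 3 members called higher became 6 with no filter, and the 3 called lower became 5 with DESeq2, 6 with no filter and 8 with the trends removed. There the share of all genes called rose from 7.43% to 12.9% with DESeq2, 12.7% with no filter and 12.5% with the trends removed. Over all genes DESeq2 called 26 in young KO against young KD in place of 6 and 383 in old KO against young KO in place of 138, and 119 and 796 with no filter.

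Leaving out 1 library at a time, with the lone sample assumed to vary like the other group, gave 3 to 5 members higher and 0 to 1 lower in old KO against sick KD, 0 to 9 higher and 1 to 6 lower in sick KD against young KD, 0 to 1 higher (Eno3) in old KO against young KO, and 0 to 3 in either direction in the interaction. Of 128 such fits of called members 67 no longer passed, in the same direction. No isoenzyme family passed 0.05 after adjustment under any length, including that of the principal transcript, an alternative chosen after seeing the data. The permutation test was too small for this to speak for stability. With a library left out the share difference was 18.2 to 25.8 points for hexokinase and 20.6 to 24.3 points for the monocarboxylate transporters. The call of Hk3 as higher in sick KD than in young KD was made under the removal of trends only.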
